A study of Mus musculus with 72 samples.

Results

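Resting cells of RAW264.7, an established macrophage line of the mouse, that carry a control hairpin were described by setting their transcriptome against their open chromatin. The members are the 6 control libraries of a series of 72 samples on transcriptional corepressors: 3 RNA-seq and 3 ATAC-seq libraries, taken by their titles. All 6 are labelled RAW264.7 with a BALB/c genotype, monocyte as the tissue and macrophages as the cell type, and carry the lentiviral hairpin against GFP (shGFP), a sequence the mouse genome lacks; they were grown in serum-containing medium with no treatment. The ATAC protocol in the labels speaks of wild-type cells, whereas the titles name the hairpin, and the titles were followed. The line was tumour-derived and kept in culture, and the labels do not say whether the 3 libraries of an assay came from separate cultures, so that their spread may be technical. Libraries of the assays were not paired, and no knockdown was compared. Genes of the RNA table and peaks of the ATAC table were joined by gene symbol: 25124 genes and 51984 peaks, with 16656 of the genes named by at least 1 peak.

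ATAC-seq marks open chromatin with a transposase that cuts where nucleosomes leave DNA exposed, and RNA-seq of polyadenylated RNA measures the transcripts that accumulate. Promoters of genes used in most cell types tend to lie in CpG islands, stretches rich in the CG dinucleotide that are open in many cells. Genes of macrophage identity and response depend more on distal enhancers, where the lineage factor PU.1, encoded by Spi1, opens chromatin together with C/EBP, AP-1, RUNX and IRF factors. Openness and transcript level are therefore related but separate measurements, since RNA also depends on elongation and on the life of the transcript.

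RNA levels are given as RPKM, reads per kilobase of exon and per 1 M reads, and accessibility as reads in a peak per 10 M reads of the library (M stands for the mega prefix). The RNA libraries held 39.1 to 43.3 M reads, with 91.7 to 92.3% in exons of the table, and the ATAC libraries 8.94 to 10.8 M, with 50.6 to 54.0% in listed peaks. Replicates ranked features alike (Spearman's rho of 0.998 for RNA and 0.957 to 0.961 for ATAC), and the median coefficient of variation was 4.08% for expressed genes, 8.44% for promoter values and 10.3% for distal sums. The ATAC values are thus the less precise side of each comparison. A gene was counted as expressed at a mean of at least 1 RPKM (10493 genes, 41.8%) and silent below 0.1 RPKM (12705 genes). A peak was counted as open at a mean of at least 10 reads per 10 M (50678 peaks). A promoter value is the sum of open peaks within 1000 bp of a start site, and a distal sum that of open peaks beyond 1000 bp and up to 50 kb from it. Values are means ± SD over 3 libraries.

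The defining macrophage genes were abundant and their promoters open in every library. Lyz2, which encodes the secreted lysozyme of myeloid cells, stood at 5271, 5150 and 5165 RPKM and had promoter values of 221, 217 and 188. Csf1r, the receptor for the growth factor CSF1, stood at 379, 391 and 394 RPKM with promoter values of 212, 197 and 190. Spi1 stood at 294, 286 and 282 RPKM with promoter values of 229, 207 and 239. Cd68, a lysosomal membrane glycoprotein of phagocytes, stood at 499, 486 and 485 RPKM with promoter values of 488, 441 and 464. The RNA libraries therefore differed little for each marker, while the markers differed from each other in which assay they led: Lyz2 had over 10 times the RNA of Cd68 and a promoter value below that of Cd68 in all 3 libraries. The labelled cell type had its defining markers.

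The markers also differed in what lay around the start site (mm10 coordinates). Cd68 had a single peak, 48 bp upstream of its start on chromosome 11 (69665918 to 69666518), and no distal peak named for it. Spi1 had a peak over its 5′ UTR on chromosome 2 (91096540 to 91097133, 225 ± 16.2) and intergenic peaks 12093 bp upstream (228 ± 5.61) and 10181 bp upstream (220 ± 13.4), which were as open as the promoter. At Csf1r an intronic peak 3043 bp into the gene (467 ± 24.8) was more open than the promoter peak (200 ± 11.5) in each library. This intron of Csf1r is known to hold its macrophage enhancer. Lyz2 had 4 distal peaks between 133 ± 16.9 and 213 ± 17.7, upstream and past the gene's end on chromosome 10.

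Promoter sequences are given as examples of the classes described here. The 250 bases before the start are printed for genes of each class, as RefSeq gives them for GRCm38.p6 (mm10), with every CG dinucleotide in capitals. Cd68 (chr11:69666171-69666420, minus strand) and the ferritin light chain gene Ftl1 (chr7:45459887-45460136, minus) are expressed with strongly open promoters. Cybb (chrX:9469325-9469574, minus) and Crip1 (chr12:113151762-113152011, plus) are expressed with no listed peak at the start. Il6 (chr5:30012864-30013113, plus) and Garnl3 (chr2:33130620-33130869, minus) are silent with an open promoter. Fos (chr12:85473640-85473889, plus) and B4galt5 (chr2:167349179-167349428, minus) are among the genes with the highest distal sums.
Cd68: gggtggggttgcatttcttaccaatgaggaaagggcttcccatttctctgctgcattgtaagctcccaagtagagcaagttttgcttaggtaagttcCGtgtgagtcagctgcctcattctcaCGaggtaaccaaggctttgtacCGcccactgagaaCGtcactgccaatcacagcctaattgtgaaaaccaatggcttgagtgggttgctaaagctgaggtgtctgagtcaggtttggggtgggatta
Ftl1: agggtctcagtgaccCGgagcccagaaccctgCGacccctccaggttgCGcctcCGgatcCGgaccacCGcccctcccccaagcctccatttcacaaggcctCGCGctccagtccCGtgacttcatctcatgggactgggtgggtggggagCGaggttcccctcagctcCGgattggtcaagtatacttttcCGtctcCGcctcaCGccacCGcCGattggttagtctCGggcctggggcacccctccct
Cybb: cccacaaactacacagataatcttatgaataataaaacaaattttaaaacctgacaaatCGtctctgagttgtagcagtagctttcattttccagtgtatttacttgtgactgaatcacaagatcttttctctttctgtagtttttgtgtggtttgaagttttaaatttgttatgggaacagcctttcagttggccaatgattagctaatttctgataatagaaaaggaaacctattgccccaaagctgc
Crip1: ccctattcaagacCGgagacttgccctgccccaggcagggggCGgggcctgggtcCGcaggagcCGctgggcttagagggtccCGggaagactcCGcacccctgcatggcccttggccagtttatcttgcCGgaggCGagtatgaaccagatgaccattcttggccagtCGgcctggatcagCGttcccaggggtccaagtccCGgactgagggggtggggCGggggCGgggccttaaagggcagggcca
Il6: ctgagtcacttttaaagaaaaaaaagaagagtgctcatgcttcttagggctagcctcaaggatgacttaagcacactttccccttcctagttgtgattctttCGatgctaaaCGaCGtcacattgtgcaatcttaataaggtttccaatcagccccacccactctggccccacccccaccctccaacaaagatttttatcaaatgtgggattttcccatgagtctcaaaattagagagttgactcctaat
Garnl3: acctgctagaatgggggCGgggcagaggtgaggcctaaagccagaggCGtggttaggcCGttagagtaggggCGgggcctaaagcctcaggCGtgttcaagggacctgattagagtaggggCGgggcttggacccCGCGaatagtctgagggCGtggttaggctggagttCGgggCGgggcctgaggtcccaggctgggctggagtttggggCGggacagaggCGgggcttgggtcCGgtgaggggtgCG
Fos: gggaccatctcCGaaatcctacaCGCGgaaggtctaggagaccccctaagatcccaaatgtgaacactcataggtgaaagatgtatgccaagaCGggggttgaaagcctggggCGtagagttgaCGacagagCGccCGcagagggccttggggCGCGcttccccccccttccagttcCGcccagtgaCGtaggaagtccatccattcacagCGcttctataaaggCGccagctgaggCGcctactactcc
B4galt5: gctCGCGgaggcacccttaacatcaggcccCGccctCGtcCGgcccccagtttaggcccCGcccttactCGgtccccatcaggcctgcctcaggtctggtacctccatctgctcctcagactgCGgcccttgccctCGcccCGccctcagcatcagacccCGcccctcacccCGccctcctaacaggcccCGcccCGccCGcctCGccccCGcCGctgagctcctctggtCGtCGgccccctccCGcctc
The 4 promoters with the fewest CG dinucleotides, Cybb with 1, Il6 with 3, Cd68 with 4 and Crip1 with 13 in these 250 bases, are those of the phagocyte genes, the cytokine gene and the second gene without a peak. B4galt5, a galactosyltransferase gene of glycolipid synthesis, holds 21 and Ftl1 17. Cd68 is CpG-poor and still among the more open promoters, and it carries the letters CCAAT 3 times.

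Most expressed genes had an open promoter and most others did not. By symbol, 82.7% of expressed genes had an open promoter (82.6 to 82.8% over the 9 pairs of an RNA and an ATAC library), against 12.3% of genes below 1 RPKM (12.1 to 12.2% over the pairs) and 4.05% of the 10242 genes listed at 0 in all 3 RNA libraries. When peaks were instead assigned to every start site of the RNA table within 1000 bp of their centre, these shares were 91.5, 13.9 and 4.44%. Of the 1814 expressed genes without an open promoter by symbol, 1068 had an open peak at the start by coordinates. A peak is named for only 1 gene but counts by coordinates for every start nearby. How many of the 1068 this accounts for was not tested. The share of genes at 0 also followed the definition: it was 2.77% with a window of 500 bp and 6.27% with one of 2000 bp.

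**Figure D1:**
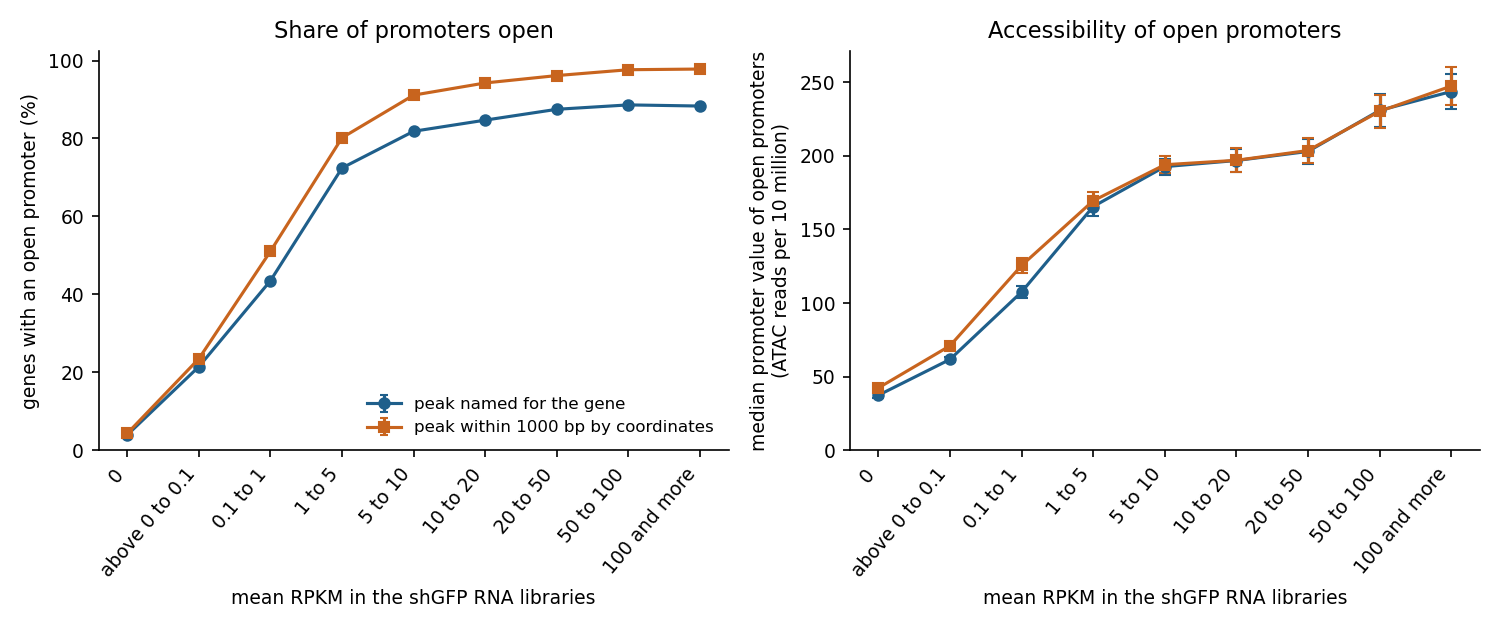
Left, the percentage of genes with an open promoter, and right, the median promoter value of open promoters in ATAC reads per 10 M, for 9 bins of mean RPKM (points, mean over 3 ATAC libraries; bars, SD). Circles join peaks by gene name and squares by coordinates; both panels climb steeply up to about 5 RPKM and flatten above it.

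Openness rose mainly across the low range of RNA. By symbol the share of open promoters was 21.8% for genes above 0 and below 0.1 RPKM, 43.7% from 0.1 to 1 RPKM, 72.5% from 1 to 5 RPKM and 81.8% from 5 to 10 RPKM, and 88.3% at 100 RPKM and above. The median value of the open promoters went from 37.5 ± 1.63 for genes at 0 through 108 ± 3.95 at 0.1 to 1 RPKM to 193 ± 5.39 at 5 to 10 RPKM. From there to 100 RPKM and above it reached 244 ± 11.7, while RNA rose at least 10-fold. Read the other way, the lowest quintile of open promoters had a median of 1.11 ± 0.01 RPKM and 50.8% of its genes were expressed. The next quintile already stood at 10.1 ± 0.13 RPKM, and the highest quintile at 16.6 ± 0.12 RPKM with 93.7% expressed. Genes within a quintile varied widely, with quartiles of 2.95 and 25.3 RPKM in that next quintile and 6.57 and 43.6 RPKM in the highest.

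Across the 10472 genes with an open promoter, Spearman's rho between RPKM and promoter value was 0.354 on the means and 0.345 to 0.350 over the 9 library pairs. Across the expressed genes among them it was 0.158, and across all 25124 genes, closed promoters included, it was 0.740. Genes within a library are not independent replicates, and the part of base composition in both values was not tested, so these coefficients are descriptions. Promoter accessibility therefore separated genes with RNA from genes without it more than it ranked the genes with RNA.

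**Figure D2:**
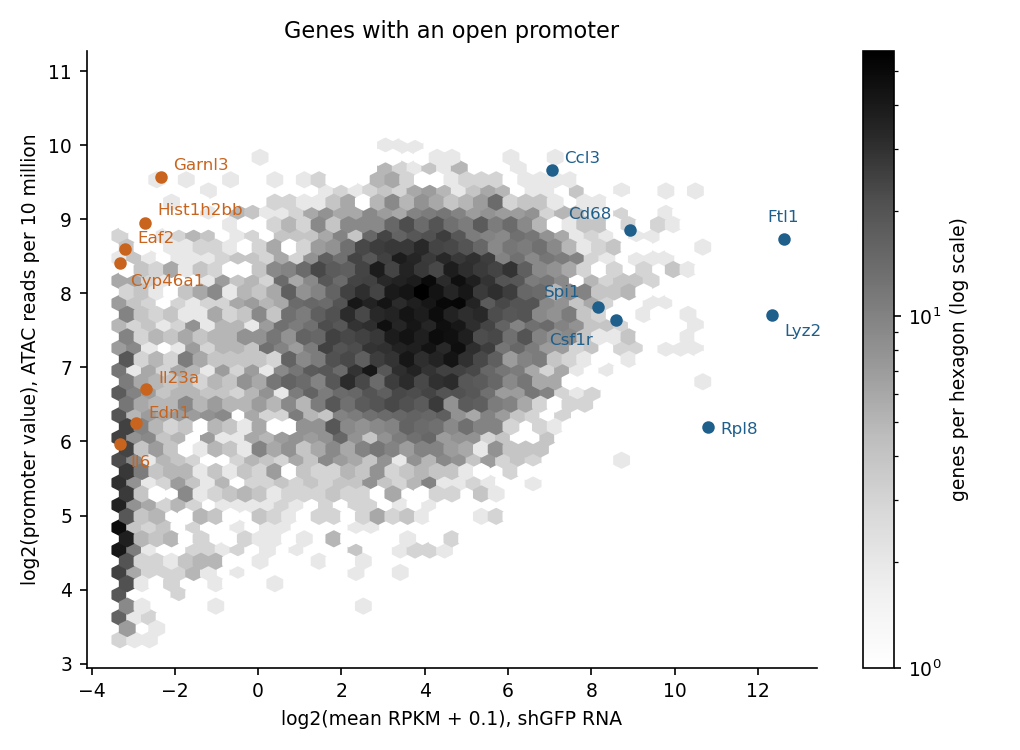
Each of the 10472 genes with an open promoter by mean RPKM (log2 of RPKM + 0.1) and promoter value (log2 of ATAC reads per 10 M), as hexagons shaded by the number of genes on a log scale. Blue points are expressed genes and orange points silent ones; Lyz2 and Rpl8 lie far to the right at moderate or low promoter values, and Garnl3 lies at the top left with 763 reads per 10 M.

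The 15 most abundant transcripts all came from open promoters, whose values spanned a 10-fold range. They encode the ferritin chains Ftl1 (6331 ± 74.2 RPKM) and Fth1 (2793 ± 83.2), which store iron; the elongation factor Eef1a1 (5592 ± 19.8); Lyz2; the calcium-binding protein S100a4 (2759 ± 101); the ribosomal proteins Rpl41, Rplp1, Rps26, Rpl8 and Rps23; and Ppia, Actb, Pkm, Ptma and Cst3. Pkm, the pyruvate kinase of glycolysis, had promoter values of 778, 711 and 710, the highest of the 15. Rpl8, at 1789 ± 60.4 RPKM, had 71.6, 53.4 and 94.1, the lowest, and below the median of 197 for expressed genes with an open promoter. Several of these genes have near-identical processed copies in the genome, and the sources used here do not give how reads that fit several copies were treated, so their levels are uncertain. The 100 genes with the most reads took 17.5 ± 0.15% of reads in exons, and 91 of them had an open promoter by symbol and 99 by coordinates.

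The most open promoters belonged to other genes. The 10 highest promoter values, from 1091 to 1909, were those of Pisd-ps3, Lmna, Cic, Ing1, Sertad2, Plec, Sp1, Khsrp, Srgap2 and Rnf44, whose RNA ranged from 5.59 ± 0.175 RPKM (Sertad2) to 516 ± 2.72 RPKM (Lmna). Several sum peaks at more than 1 annotated start. Lmna, the gene of nuclear lamins A and C, had 1340 ± 29.2 over all its starts and 609 at the start in the RNA table. Cic had 1329 ± 128 and 308, and Plec, a cytoskeletal linker gene, 1178 ± 54.3 and 94.9. Sp1, a transcription factor that binds GC boxes, had 1139 ± 66.0 by either count at 15.7 ± 0.692 RPKM. Pisd-ps3 is a pseudogene on an unplaced scaffold, and its value is uncertain for the reason given above.

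Among silent genes, 951 had an open promoter, and only 61 of these (6.41%) shared the peak with the start of an expressed gene. Garnl3 had the highest value, with 849, 694 and 747 in the ATAC libraries against 0.09, 0.13 and 0.08 RPKM in the RNA libraries. Eaf2, an RNA polymerase elongation cofactor gene, had a promoter value of 387 ± 23.8 at 0.01 RPKM, and Cyp46a1, the brain cholesterol hydroxylase gene, had 340 ± 30.9 and was at 0 in all 3 RNA libraries. Atp8b3, Rhpn2, Abcb9 and Tex14 were in the same group, with values from 324 ± 58.2 (Abcb9) to 588 ± 31.8 (Tex14). All of these promoter values by symbol lay above the median of 197 for expressed genes with an open promoter. At Tex14 the value came from 1 peak at another annotated start than the one in the RNA table, where the only peak, of 152, was that of the Rad51c promoter.

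Histone genes made up 5 of the 951 silent genes with an open promoter, and this group was chosen after its values were seen. Hist1h2bb, Hist1h2bp and Hist1h2ad were 3 of the 10 silent genes with the most open promoters, at 494 ± 17.2, 375 ± 5.88 and 359 ± 25.0. Of the 69 genes of the clustered histone families in the table, 49 had an open promoter by symbol and 61 by coordinates. Over all 69, with closed promoters counted as 0, the median promoter value by symbol was 230 ± 4.15. Yet 10 were expressed, and the median RNA level of the 69 was 0.27 ± 0.04 RPKM. Of the 59 below 1 RPKM, 41 (69.5%) had an open promoter, against 12.3% of all genes below 1 RPKM. Hist1h1c, which encodes a linker histone, had the most RNA at 16.0 ± 0.942 RPKM, with a promoter value of 651 ± 65.4. Transcripts of these genes end in a stem-loop in place of a poly(A) tail, and the RNA is labelled polyadenylated. The part of this in the low RNA values was not tested. Hist1h2bq and Hist1h2br had the same RNA values, 0.507, 0.112 and 0.391 RPKM. How reads that fit several copies were treated is not given, so the RNA levels of histone genes are uncertain too.

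Conversely, 180 of the 6271 genes at 10 RPKM or more (2.87%) had no listed peak within 1000 bp of the start by either join. Of these, 132 were protein-coding, 36 non-coding and 7 pseudogenes, and 109 had the edge of an open peak within 5000 bp of the start. Fau, a ribosomal protein fusion gene, had the most RNA, at 1309, 1165 and 1262 RPKM. Its nearest open peak was named for Mrpl49, 1462 bp away. The exon length listed for Fau, 505.5 bases, is not a whole number, so its listed start and minus strand are uncertain. Whether that peak lies at a start of Fau was not tested. The non-coding Eyelinc18 (609 ± 29.8 RPKM), the pseudogenes Rpl14-ps1 (313 ± 26.8) and BC002163 (140 ± 7.40), and the enolase copy Eno1b (292 ± 6.29) followed; copies of other genes are uncertain here too. Rn45s, the ribosomal RNA precursor (208 ± 16.6 RPKM), had no peak centred at its start, but peaks of 8328 ± 706 and 2563 ± 234 in its body, the strongest distal peaks, in a repeated sequence.

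Genes with a macrophage or metabolic role were among those without a promoter peak. Cybb, the catalytic subunit of the phagocyte NADPH oxidase, stood at 161, 164 and 166 RPKM. Its CpG-poor promoter printed above had no peak, whereas 6 peaks lay within 50 kb, led by one 1718 bp upstream (138 ± 7.69) and one in an intron 8663 bp into the gene (146 ± 13.6). Crip1, a LIM-domain protein gene at 190 ± 10.2 RPKM, had peaks 5413 bp upstream (96.8 ± 5.26) and 2170 bp downstream (81.7 ± 18.1). The proteasome ATPase gene Psmc1 (174 ± 2.76 RPKM) had 5 distal peaks between 34.5 ± 5.30 and 102 ± 13.7. Cox7b, a subunit of cytochrome oxidase (150 ± 7.47 RPKM), had no peak named for it within 50 kb, and its nearest open peak, 3620 bp from the start, was at the start of Magt1 (191).

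Promoter peaks were fewer but larger than the rest. Of open peaks, 23.1% (11682) lay within 1000 bp of a start and took 42.2 ± 0.65% of reads in peaks, while 59.3% (30047) lay from there to 50 kb and took 45.5 ± 0.54%. The median value was 156 ± 5.07 for promoter peaks and 50.9 ± 2.41 for peaks from there to 50 kb, and the median width 584 and 328 bp. Promoter peaks sat close to the start, 73.1% of them within 200 bp. Of the distal peaks, 50.8% were intronic and 42.3% intergenic.

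Distal accessibility followed RNA less closely than promoter accessibility did, and how closely depended on how peaks were assigned. With the authors' nearest-gene names, rho between RPKM and distal sum was 0.083 across the 10472 genes with an open promoter, and the median of genes with 5 or more distal peaks was 1.42 times that of genes with none (1.41 to 1.45 over the library pairs). By coordinates, where a peak counts for every gene within 50 kb, rho was 0.200 and the ratio 3.09 (11633 genes). Leaving out peaks at any other start site from that count gave 0.175 and a ratio of 2.46. On this last count the median rose from 5.85 ± 0.08 RPKM for genes with no distal peak through 10.7 ± 0.09 RPKM with 2 to 4 peaks to 19.8 ± 0.33 RPKM with 10 or more. The steps exceeded the spread between libraries, which is taken over the same genes and does not measure the spread among genes. Such steps were also present among genes of like promoter accessibility. In the lowest tertile the medians were 2.02 ± 0.12 RPKM without distal peaks and 6.70 ± 0.09 RPKM with 5 or more. In the highest tertile they were 9.18 ± 0.20 and 20.7 ± 0.17 RPKM. Gene density differs between such genes, and its part was not tested.

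The genes with the highest distal sums were not those with the most RNA. Apart from Rn45s they were Trim8 (2814 ± 145 over 15 peaks), a ubiquitin ligase of cytokine signalling; Abr (2777 ± 121, 18 peaks), a regulator of small GTPases; Mbp (2724 ± 97.4, 20 peaks); Tex14; Runx1 (2488 ± 24.9, 21 peaks), a factor of blood cell development; Scgb1a1; Ankdd1a; Fos (2230 ± 72.0, 18 peaks); and B4galt5 (2096 ± 51.3, 13 peaks). Their RNA spanned 0.02 to 63.3 RPKM among the protein-coding members. Runx1 stood at 9.57 ± 0.581 RPKM, with a promoter value of 485 ± 34.5. Trim8, at 51.8 ± 0.815 RPKM, had no peak within 1000 bp of its start, and its nearest peaks were 1568 bp upstream (335 ± 25.8) and 2499 bp downstream (418 ± 12.0).

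For 3 of these genes the named gene was silent or nearly so. All 16 distal peaks of Scgb1a1, an airway secretory protein gene at 0.02 RPKM, had Ahnak (28.3 ± 3.06 RPKM; 7 peaks) or Asrgl1 (12.4 ± 0.351 RPKM; 9 peaks) as the nearest expressed start. Of the 10 peaks of Ankdd1a (0.17 RPKM), 8 lay nearest to Plekho2 (45.6 ± 0.754 RPKM) and 2 to Spg21. The 6 distal peaks of Tex14 lay nearest to Rad51c (3.27 ± 0.391 RPKM). The median distances from the peaks of these genes to the starts named ranged from 41.6 kb (Rad51c) to 62.9 kb (Ahnak). Over all 38857 open peaks beyond 1000 bp of a start that were named for a gene of the RNA table, those beyond 50 kb included, 59.7% were named for an expressed gene and 31.5% for a silent one, beside 41.8% and 50.6% of all genes. The share named for an expressed gene rose with the value of the peak, from 52.0% in the weakest quintile to 67.8% in the strongest, and the median distance to the nearest expressed start fell from 54.3 to 27.4 kb. For the 12256 peaks named for a silent gene this distance was 88.9 kb, against 37.2 kb over all 38857. An expressed start lay within 50 kb for 29.0% of them, against 58.7% of all.

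The single distal peaks of highest value after those of Rn45s were mostly named for genes with little RNA. An intergenic peak on chromosome 1 (24611602 to 24616138), 26433 bp from Col19a1, a gene at 0, had 998 ± 98.4 and was 4537 bp wide. Clec11a (910 ± 58.3, intron, 0.28 RPKM), Kat6b (823 ± 88.9, intron, 0.95 RPKM), Parp16 (823 ± 31.1, intergenic, 1.91 RPKM), Phf19 (818 ± 69.1, intron, 16.0 RPKM), Ankdd1a (815 ± 50.4), Arl4d (813 ± 52.9, intergenic, 0.82 RPKM) and Adssl1 (791 ± 45.7, intron, 59.9 RPKM) completed them. Adssl1 was thus the most expressed of these apart from Rn45s. The Kat6b peak was 970 bp wide and centred 1050 bp from the start, so part of it lay within 1000 bp of the start. Whether any of these peaks lies in repeated sequence, or in a nuclear copy of mitochondrial DNA, was not tested.

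Gene lists were then read against all genes, of which 41.8% were expressed, 41.7% had an open promoter by symbol and the median number of distal peaks was 0. Distal peaks of lists are counted by nearest-gene names unless coordinates are named. Among expressed genes the median RNA level was 13.9 RPKM, the median promoter value 165 with closed promoters counted as 0, and the median number of distal peaks 1. The lists overlap in part and serve as description only. In a bulk sample of cells, fewer cells that use a gene and less use per cell cannot be told apart.

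**Figure D3:**
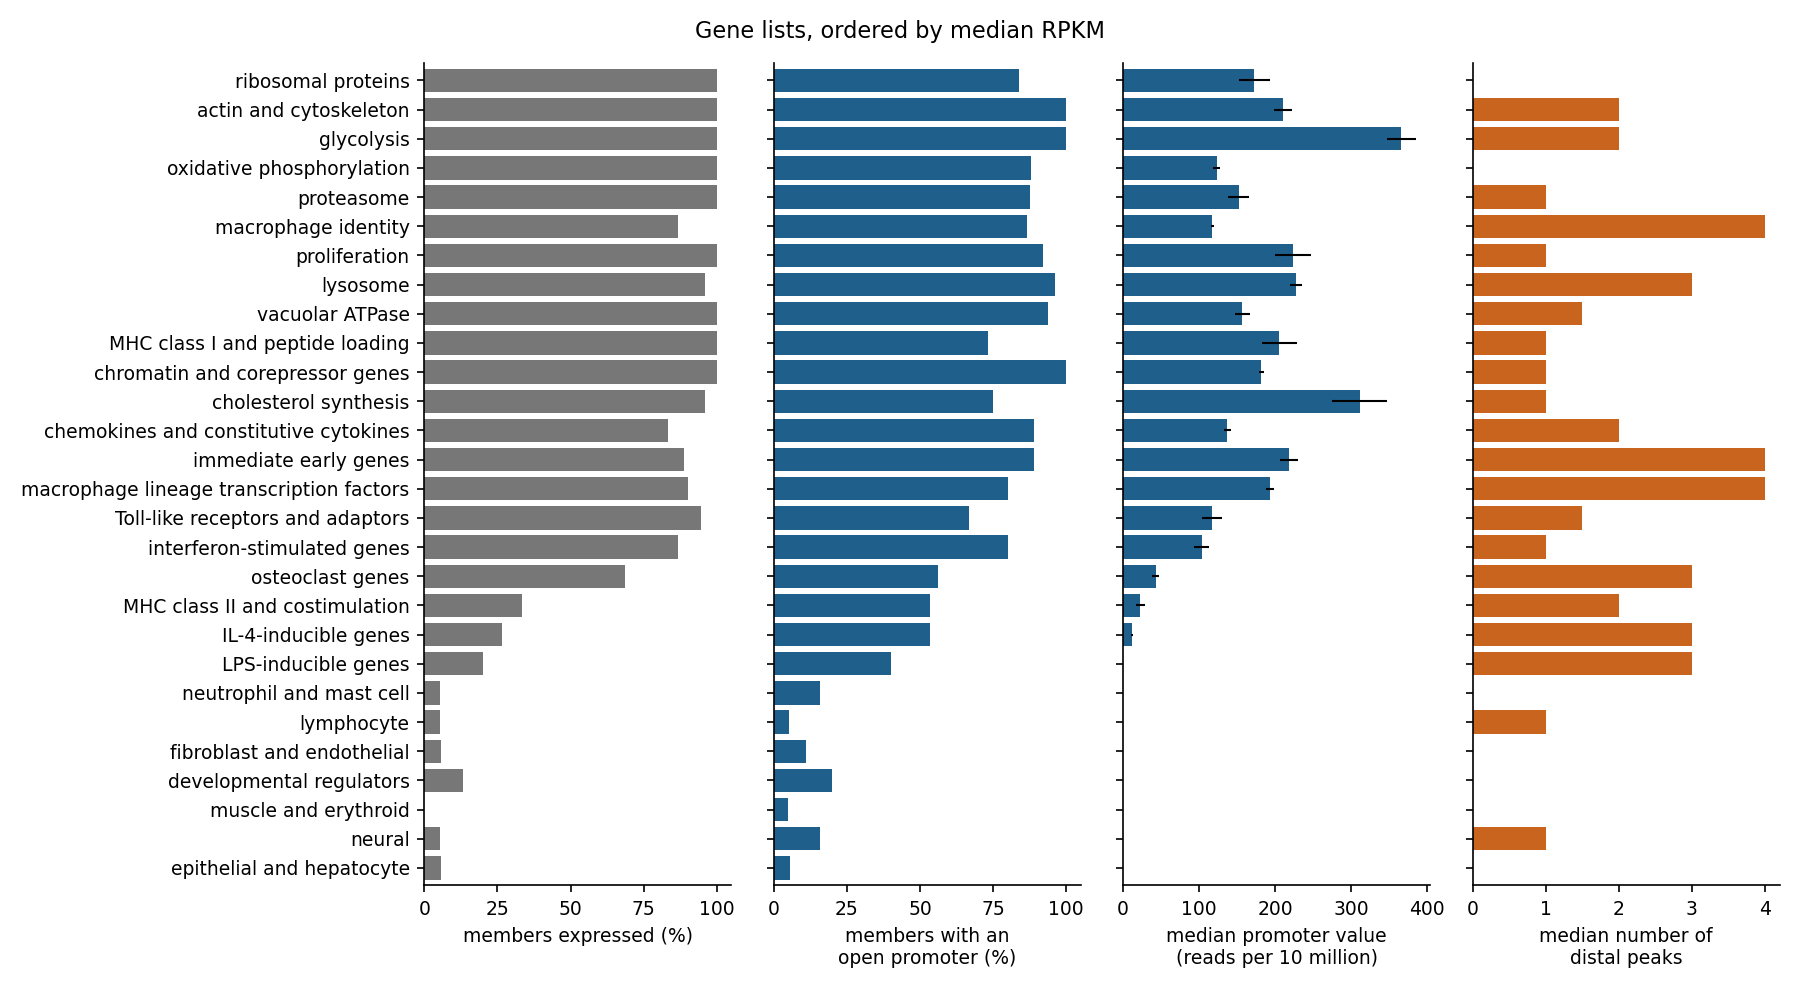
For 28 gene lists ordered by median RPKM (highest at the top), bars give the percentage of members expressed, the percentage with an open promoter, the median promoter value in ATAC reads per 10 M (error bars, SD over 3 libraries) and the median number of distal peaks by nearest-gene names. Ribosomal genes lead in RNA with a median of 0 such peaks, and macrophage identity genes have a median of 4; lists of other cell types at the bottom are almost empty in RNA and promoters.

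Macrophage identity genes paired high RNA with many distal peaks and moderate promoters. Of 30 members, 26 were expressed and 26 had an open promoter, with a median of 94.5 ± 2.92 RPKM, a median promoter value of 117 ± 1.78 and a median of 4 distal peaks. Tyrobp, an adaptor of activating receptors, stood at 652 ± 29.0 RPKM with a promoter value of 709 ± 37.9. Cd14, the lipopolysaccharide coreceptor, stood at 707 ± 13.9 RPKM with 277 ± 21.1. Csf1r (distal sum 1075 ± 61.4) and the integrin Itgb2 (1031 ± 30.8) led in distal accessibility. The 4 members below 1 RPKM were Cd84, Mrc1, Mertk and Ms4a7; Mertk, a receptor for apoptotic cells, was at 0 in all 3 RNA libraries with promoter values of 73.8, 61.9 and 91.3.

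Transcription factors of the lineage had fewer transcripts and as many distal peaks. Of 20, 18 were expressed, at a median of 9.70 ± 0.60 RPKM, with a median promoter value of 193 ± 5.16 and 4 distal peaks. Spi1 led, followed by Cebpb (111 ± 3.65 RPKM) and Irf5 (84.7 ± 2.04 RPKM). Fli1, an ETS factor at 16.6 ± 0.635 RPKM, had no promoter peak and 10 distal peaks (1175 ± 32.4). Maf and Batf3 were silent, and Batf3, a factor of dendritic cells, still had 4 distal peaks (456 ± 25.9).

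Receptors and lysosomal genes were expressed with few exceptions. Of 18 Toll-like receptors and adaptors, 17 were expressed (median 8.71 ± 0.26 RPKM), and Tlr2, which senses bacterial lipoproteins, had 11 distal peaks (1443 ± 19.7) at 79.6 ± 0.615 RPKM. Of 25 lysosomal genes, 24 were expressed and 24 had open promoters, at a median of 94.0 ± 2.90 RPKM, led by the cathepsins Ctsd (683 ± 3.62 RPKM), Ctsb and Ctsz. Ctsh was the exception, at 0.16 RPKM with a promoter value of 56.2 ± 9.24. All 16 subunit genes of the proton pump that acidifies lysosomes were expressed (median 87.2 ± 1.20 RPKM), and 15 had an open promoter.

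Metabolic and ribosomal genes were almost all expressed, and their distal counts depended on the assignment of peaks. The 25 ribosomal protein genes had a median of 1113 ± 42.1 RPKM and a median promoter value of 172 ± 20.2, and 21 had an open promoter by symbol and 25 by coordinates. Their median number of distal peaks was 0 by nearest-gene names and 5 by coordinates without start-site peaks, where macrophage identity genes had 8. Oxidative phosphorylation was alike, with 25 of 25 expressed at 181 ± 12.7 RPKM, a promoter value of 123 ± 4.26 and a median of 0 distal peaks by names and 3 by coordinates. Glycolysis genes had the most open promoters of all lists at 366 ± 18.9, with 252 ± 2.66 RPKM and a median of 2 distal peaks by names and 6 by coordinates; Pkm, Ldha (1043 ± 36.7 RPKM) and Aldoa (1034 ± 17.9 RPKM) led in RNA, and the glucose transporter Slc2a1 in distal sum (817 ± 66.5). Cholesterol synthesis had the next most open promoters (311 ± 36.2) at 35.1 ± 0.24 RPKM. Ribosomal genes thus exceeded cholesterol genes over 30-fold in RNA with lower promoter values.

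The other expressed lists lay between these. Proteasome (24 of 24 expressed, median 158 ± 3.01 RPKM), actin and cytoskeleton (18 of 18, 574 ± 3.74), proliferation (25 of 25, 94.2 ± 1.46) and chromatin and corepressor genes (20 of 20, 36.3 ± 0.50) had 1 or 2 distal peaks at the median. Pcna, the replication clamp, stood at 347 ± 6.07 RPKM with a promoter value of 574 ± 43.2. Actb had a distal sum of 1333 ± 91.5 and the actin-capping gene Capg 1244 ± 58.9.

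Inducible genes had little RNA at rest and chromatin that was partly open. Of 30 LPS-inducible genes, 6 were expressed and 22 silent, yet 12 had an open promoter and the median number of distal peaks was 3. Of the 24 below 1 RPKM, 7 had an open promoter, beside 12.3% of all genes below 1 RPKM. Il23a, a cytokine subunit gene, had promoter values of 106, 103 and 104 with 0.05, 0.11 and 0 RPKM. Edn1 had a distal sum of 528 ± 20.9 at 0.03 RPKM. The inhibitors Nfkbia (59.2 ± 1.79 RPKM, promoter 548 ± 31.9) and Socs3 (5.51 ± 0.484 RPKM, distal sum 1952 ± 119) led the list in RNA and in distal sum.

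Single inducible loci differed in where they were open. Il6, at 0 in all 3 RNA libraries, had a peak over its start (62.5 ± 2.47) and intergenic peaks 23032 bp (93.7 ± 10.2) and 26954 bp (69.1 ± 7.96) downstream of it. Il12b, also at 0, had a peak of 30.7 ± 11.2 whose centre lay 980 bp upstream, near the edge of the promoter window. Il1b, at 0.04 RPKM, had no peak within 1000 bp, but one 2302 bp upstream (216 ± 19.5) and one 9676 bp upstream (124 ± 25.5). Nos2 and the IL-4-inducible Arg1 (0.02 and 0.03 RPKM) had no promoter peak either, with peaks 4128 bp (75.8 ± 6.63) and 4225 bp (72.6 ± 15.9) upstream. These 5 loci were chosen after their values were seen.

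Of 15 IL-4-inducible genes in the table, 4 were expressed, 8 had an open promoter and the median was 3 distal peaks. Socs1, a cytokine signalling inhibitor, had a promoter value of 414 ± 13.3 at 0.79 ± 0.061 RPKM, and Ccl24 one of 56.0 ± 3.36 while at 0 in all 3 RNA libraries. Immediate early genes were expressed in 16 of 18 cases (median 10.5 ± 0.32 RPKM) with 4 distal peaks at the median and a promoter value of 218 ± 12.0; Fosb (0.10 RPKM, promoter 90.4 ± 3.26) and Myc (0.76 RPKM, 83.0 ± 11.0) were the others. Interferon-stimulated genes were expressed in 26 of 30 cases at a median of 7.88 ± 0.26 RPKM, with 24 open promoters and 1 distal peak, led by Bst2 (129 ± 3.11 RPKM). Chemokine and constitutive cytokine genes (15 of 18 expressed, median 29.5 ± 0.08 RPKM, 16 open promoters) held both extremes: Mif (1233 ± 45.1 RPKM), Spp1 (1148 ± 16.4) and Ccl3 (132 ± 8.73, promoter 815 ± 63.5), against Ccl7 at 0.

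Antigen presentation was split between its classes. All 15 class I and peptide-loading genes were expressed (median 45.7 ± 5.33 RPKM), B2m at 604 ± 22.7. Of 15 class II and costimulation genes, 5 were expressed and 8 silent, with 8 open promoters; Cd74, the invariant chain, reached 127 ± 1.46 RPKM, and Cd86 had a promoter value of 37.6 ± 12.6 at 0.02 RPKM. This line can form osteoclasts under RANKL, and osteoclast genes were expressed in 11 of 16 cases. The receptor Tnfrsf11a (19.4 ± 0.832 RPKM) and the factor Nfatc1 (21.9 ± 0.293 RPKM) had 11 and 7 distal peaks, and the effectors Ctsk (0.90 ± 0.211 RPKM) and Mmp9 (0.08 RPKM) had no promoter peak but 6 and 3 distal peaks.

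Genes of other cell types were almost all without RNA and without open promoters. In the lymphocyte, neutrophil and mast cell, fibroblast and endothelial, epithelial and hepatocyte, neural, and muscle and erythroid lists, 0 or 1 members were expressed and 1 to 3 had an open promoter, of 18 to 20 in each. The summed RNA of a list was 0.31 to 2.46 RPKM, except for 29.8 RPKM in the neural list, of which 28.6 came from Mbp, the myelin basic protein gene, whose locus also encodes the golli proteins of blood cells. S100a8, a neutrophil calcium-binding protein gene, had a promoter value of 99.3 ± 15.4 at 0.20 ± 0.230 RPKM, and Col1a1 had 63.3 ± 11.8 at 0. Of 30 developmental regulators 4 were expressed and 6 had an open promoter; Pax6 stood highest, at 4.04 ± 0.241 RPKM with a promoter value of 301 ± 19.5.

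CpG content of the promoter separated these groups further. RefSeq promoter sequences of 300 bases, 250 before and 50 after the start, had the same start as the RNA table for 17613 genes (70.1%), and peaks were joined to them by coordinates. The CpG ratio is the number of CG dinucleotides over the number expected from the C and G content. Its median was 0.81 for expressed genes with an open promoter, 0.33 for expressed genes without one, 0.66 for genes below 1 RPKM with one and 0.25 for those without. GC content moved with it, with medians of 61.7, 52.3, 60.0 and 49.7%, and the part of GC content in the recovery of ATAC or RNA reads was not tested.

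**Figure D4:**
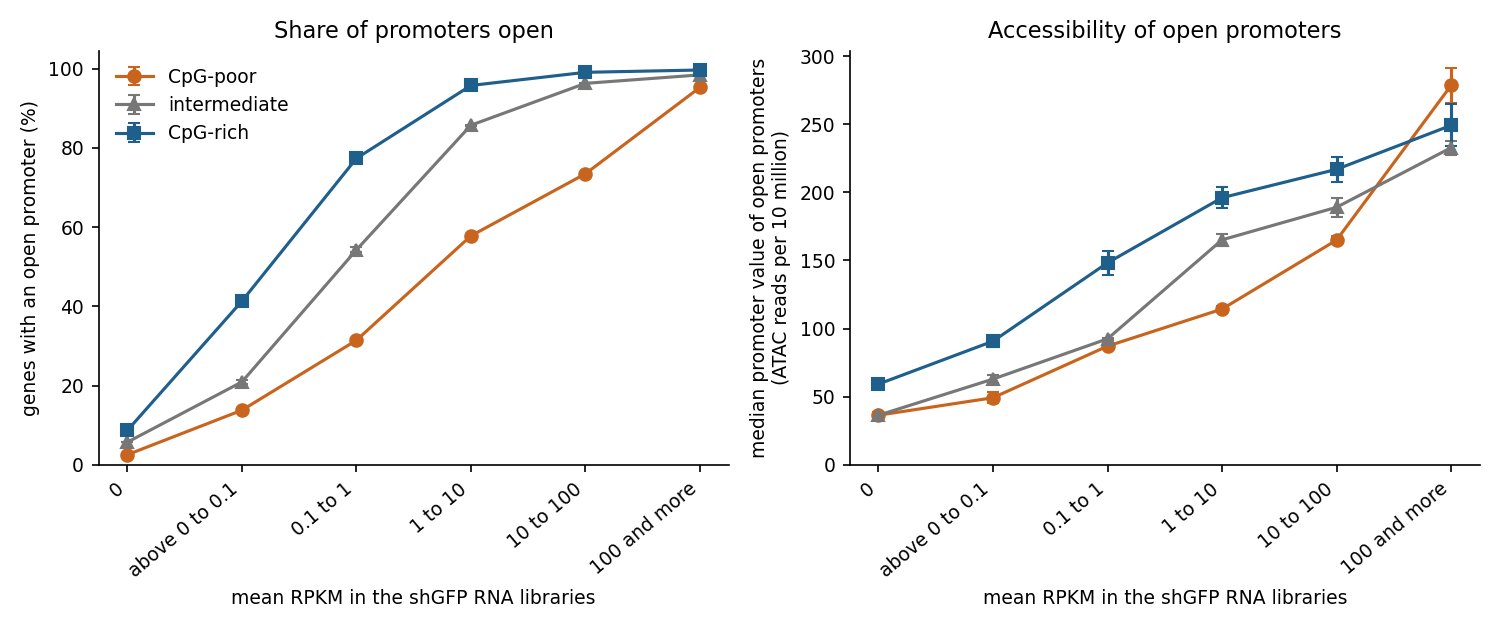
Left, the percentage of genes with an open promoter, and right, the median promoter value of open promoters in ATAC reads per 10 M, by bin of mean RPKM for CpG-poor, intermediate and CpG-rich promoters (points, mean over 3 ATAC libraries; bars, SD). CpG-rich promoters are mostly open from 0.1 RPKM on, whereas CpG-poor ones climb across the whole range and reach 278 reads per 10 M at 100 RPKM and above.

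Among CpG-rich promoters (ratio of at least 0.6; 8521 genes), 73.2% of genes were expressed, 97.9% of the expressed genes were open, and so were 33.9% of those below 1 RPKM. Among CpG-poor promoters (ratio below 0.4; 6894 genes), 11.7% were expressed, 66.2% of the expressed genes were open, and 6.40% of those below 1 RPKM. The relation of RNA and accessibility differed too: across open promoters rho was 0.549 in the CpG-poor class (0.53 to 0.55 over the library pairs, 922 genes), 0.391 in the intermediate class (989 genes) and 0.210 in the CpG-rich class (6880 genes). The classes differed in their mix of genes, since 390 of the 922, 210 of the 989 and 773 of the 6880 were below 1 RPKM. The part of this mix in the different coefficients was not tested. The median value of open CpG-poor promoters rose from 36.4 ± 2.54 for genes at 0 to 278 ± 12.6 at 100 RPKM and above, and that of CpG-rich ones from 59.2 ± 3.01 to 249 ± 15.5. From 1 to 10 RPKM the CpG-rich promoters were the more open, at 196 ± 7.69 against 114 ± 2.43. This gap exceeded the spread between libraries, which does not measure the spread among genes. At 100 RPKM and above, where 42 genes are CpG-poor, the CpG-poor promoters had the higher median, and the ranges of 1 SD around the medians lay close together.

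The gene lists fell on either side. Macrophage identity genes had a median CpG ratio of 0.24, with 17 of the 21 matched promoters CpG-poor and 0 CpG-rich. LPS-inducible (0.33), interferon-stimulated (0.29) and class II genes (0.23) lay near them. Lymphocyte (0.20), neutrophil and mast cell (0.16), fibroblast and endothelial (0.26), epithelial and hepatocyte (0.25) and muscle and erythroid genes (0.23) lay there too. Neural genes had 0.73. A low ratio was thus not particular to macrophage genes or to expressed genes. Ribosomal protein genes (0.93), proliferation genes (0.94) and oxidative phosphorylation genes (0.84) were CpG-rich. The lineage transcription factors (0.87) and immediate early genes (0.77) were CpG-rich as well, although both had the same median of 4 distal peaks as the CpG-poor identity genes.

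Short motifs within the 300 bases were counted as exact letters on both strands. The GC box GGGCGG, bound by Sp and KLF factors, was present in 46.6% of all promoters, and in 70.0% of those expressed and open against 24.8% of those neither. The letters CCAAT, bound by NF-Y, were in 38.9% of all promoters, with 40.1% and 38.4% in these classes. An ETS site spelled CCGGAAG was in 12.0% of all, with 23.0% and 3.01%, and a PU.1-type site spelled GAGGAAG in 13.2% of all, with 13.3% and 12.7%. The letters TATAAA on the gene's strand, from 45 to 16 bases before the start, were in 2.79% of all, with 0.92% and 4.67%. The GC box and the ETS letters contain CG, so their shares move with CpG content, and the ETS and PU.1-type letters share the core GGAAG but differ in the letters before it, so that no single match counts as both. The PU.1-type letters were in 8 of 21 matched promoters of macrophage identity genes and 7 of 18 of neutrophil and mast cell genes. They were in 3 of 22 of interferon-stimulated and 0 of 8 of class II and costimulation genes. Among CpG-poor promoters that were open and expressed, the 151 with them had 14.3 ± 0.68 RPKM, against 9.86 ± 0.02 for the 381 without. Letters for the other factors named with PU.1 did not go with more RNA in this class. RNA was 7.36 ± 0.29 RPKM with IRF letters against 11.3 ± 0.12 without, and 8.41 ± 0.18 against 11.2 ± 0.10 for RUNX. For AP-1 it was 10.6 ± 0.53 against 10.8 ± 0.10 RPKM, and for C/EBP 10.7 ± 0.21 against 10.8 ± 0.08. Letters of NRF1, CRE, E-box and YY1 sites were also counted and are not described. A match is a description of letters and not a bound site.

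**Figure D5:**
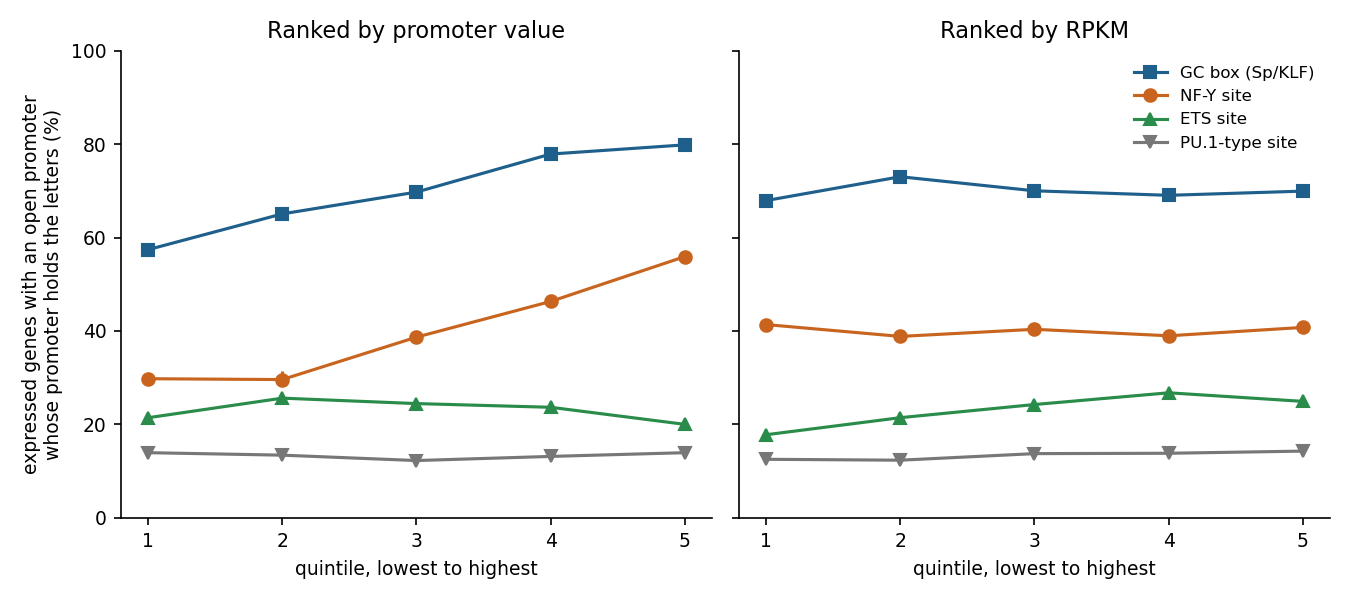
Percentage of expressed genes with an open promoter whose 300-base promoter holds the motif, for 4 motifs, across quintiles of promoter value (left) and of RPKM (right) with 1484 genes in the first quintile; vertical lines span the 3 libraries and are mostly smaller than the symbols. The NF-Y line climbs from 29.8 to 55.9% on the left and stays near 41% on the right.

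Motifs related differently to openness and to RNA. From the lowest to the highest quintile of promoter values of expressed genes, CCAAT went from 29.8 to 55.9% (55.2 to 56.0% over the libraries) and the GC box from 57.4 to 79.9%. From the lowest to the highest quintile of RPKM they went from 41.4 to 40.8% and from 67.9 to 69.9%. The ETS letters went from 21.4 to 20.0% by promoter value and from 17.8 to 24.9% by RPKM. The same held within CpG-rich promoters that were open and expressed: the 2420 with CCAAT had a median value of 259 ± 12.0 against 187 ± 7.31 for the 3687 without, at 16.2 ± 0.09 and 16.3 ± 0.05 RPKM. For the ETS letters, 1536 promoters with them had 203 ± 8.42 against 216 ± 9.28 without, but 19.2 ± 0.15 against 15.2 ± 0.03 RPKM. The other classes differed in part. In intermediate promoters CCAAT again went with higher values at like RNA (13.6 ± 0.13 against 13.4 ± 0.16 RPKM). The ETS letters went with less RNA there (12.8 ± 0.32 against 13.6 ± 0.12 RPKM). In CpG-poor promoters CCAAT went with values of 147.0 ± 2.12 against 140.9 ± 1.17. RNA was lower with it (8.11 ± 0.42 against 12.0 ± 0.20 RPKM). The ETS letters went with more RNA there (11.9 ± 0.08 against 10.5 ± 0.18 RPKM) and higher values. Cholesterol synthesis, with 13 of 15 matched promoters holding CCAAT, and proliferation, with 20 of 22, were the lists where these letters were most common.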

How the data were processed

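The 6 control libraries comprised 3 of RNA and 3 of ATAC. The deposited RNA values are RPKM, which HOMER made per the file headers from reads in mm10 RefSeq exons, counting either strand and keeping a single transcript for a gene, so that antisense or overlapping genes cannot be told apart. The deposited ATAC values are reads in each peak of a merged list that HOMER annotated on mm10, scaled to 10 M reads per the file headers; decimal commas were read as points. Per the submitters' processing notes, MACS2, HOMER, HISAT2, Bowtie2 and DESeq2 were used with mm10 and mm9; the sources used here give no version, which aligner served which assay, or any shift of reads for the transposase. Low values were whole multiples of 1 read within 0.1 read, which gave the depths and their counting precision. Replicate pairs differed by more than counting noise, with a chi-square of 1.64 to 5.81 for each feature.

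From these values, mean RPKM, promoter values and distal sums were computed for each gene in Python 3.11.15 with pandas 2.3.3 and scipy 1.17.1, leaving out mitochondrial peaks. No groups were compared, so no test was run. The join and the correlation were tested on simulated data. The members, gene lists and rules were chosen with earlier results of these data known. Genes named are the 4 markers, the 15 highest by RPKM, the 10 highest each by promoter value, distal sum, RPKM without a peak and promoter value while silent, the 10 strongest distal peaks and, for each list, the 3 members of highest RPKM, the 2 of highest distal sum and, for inducible and other cell types' genes, the 2 of highest promoter value below 1 RPKM, leaving out unnamed and small RNA genes. Neighbours of named peaks, members of small counts, and Il6, whose promoter is printed, were named after their values were seen. Alternatives were other windows, minima, joins, summaries and gene types, and leaving out each library. The ChIP-seq and CUT&Tag libraries of the series were not used.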

Additional observations from a re-analysis of the deposited data

How the results depend on the processing

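No paired analysis was possible because no result comes from a test and the libraries of the assays were not paired. Of 91 alternative values, 33 moved by less than the spread between libraries and 58 moved by more. A reversed sign was looked for only in the correlations, and 0 of these reversed. The share of expressed genes with an open promoter was 80.8% with a 500 bp promoter window, 84.1% with 2000 bp, 91.5% by coordinates, 82.8% with no minimum for a peak, 82.4% with a minimum of 20, 80.9% with genes expressed from 0.5 RPKM, 85.7% from 5 RPKM and 85.5% for protein-coding genes. For genes at 0 it was 2.77% (500 bp), 6.27% (2000 bp), 4.44% (coordinates), 4.18% (no minimum), 3.36% (minimum of 20) and 3.65% (protein-coding). The promoter correlation was 0.309, 0.415, 0.312, 0.361, 0.323 and 0.348 under these settings in the same order, 0.158 with genes of at least 1 RPKM, 0.399 and 0.450 as Pearson's r on the log2 scale with 1 and 0.1 added to RPKM, 0.349 with the highest peak and 0.307 per kb of peak width. The distal correlation was 0.0898 (500 bp), 0.0632 (2000 bp), 0.200 (coordinates), 0.0800 (minimum of 20), 0.0850 (protein-coding), 0.0488 (at least 1 RPKM), 0.0879 (Pearson, 0.1 added), 0.0884 (highest peak), 0.0878 (per kb), 0.0994 with a 20 kb distal window and 0.0681 with 100 kb. The ratio of medians between genes with 5 or more and with 0 distal peaks was 1.38 (500 bp), 3.09 (coordinates), 1.40 (no minimum), 1.51 (minimum of 20), 1.83 (20 kb), 1.21 (100 kb) and 1.40 (protein-coding). Promoter peaks held 39.6% of peak reads with 500 bp and 45.6% with 2000 bp, and the top 100 protein-coding genes 17.7% of RNA reads. Chosen after seeing the data, peaks listed for all 3 control libraries gave 80.8%, 2.69% and a promoter correlation of 0.289, and distal peaks by coordinates without start-site peaks gave 0.175 and 2.46. Leaving out 1 library at a time gave 82.7 to 82.8%, 3.98 to 4.52%, 0.351 to 0.354, 0.0827 to 0.0839, 1.41 to 1.43, 41.9 to 42.5% and 17.4 to 17.6% for the same results. Causes of these moves were not tested.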
